A study of Mus musculus with 6 samples.

Results

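The 10 genes described here belong to the quality control system that removes oocytes with damaged DNA. They were chosen by name: the p53 family genes Trp63, Trp53 and Trp73, the checkpoint kinase genes Atm, Atr, Chek2 and Chek1, and the p53 family targets Cdkn1a, Mdm2 and Ccng1. All 10 were found among the 47122 gene models of the deposited table, and 9 of them, all but Trp73, passed the filter on low values. RNA was sequenced from ovaries of newborn mice at 1 dpp (day post partum). The wild-type (WT) group and the group with Bcas2 knocked out in oocytes (Bcas2 cKO) held 3 samples each. Bcas2 encodes a subunit of the PRP19 splicing complex. Not given in the sources used here are the Cre driver, the deleted exons, the mouse strain and any pooling of ovaries. A description label names granulosa cells, but titles and tissue name the ovary, and markers of both oocytes (Ddx4 at 29.3 to 45.3 FPKM) and pregranulosa cells (Foxl2 at 82.3 to 163.2 FPKM) were present in every library. With pooling not stated, the p-values set group differences only against the spread between these samples, part of which may be technical.

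In a mammalian oocyte, breaks in DNA are sensed by the kinases ATM and ATR, which switch on the checkpoint kinases CHK2 and CHK1. CHK2 phosphorylates TAp63, the long form of p63 that oocytes of newborn ovaries hold in an inactive state. Active TAp63 and p53 then drive genes for cell death and cell cycle arrest. Much of this relay runs through phosphorylation of proteins already present, which RNA levels do not measure. Gene totals also join the TA and ΔN transcripts of Trp63, so the level of TAp63 alone was not measured.

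Proteins of the p53 family bind response elements built from a pair of decamers, which can lie before a gene's start or, as in Mdm2, in its first intron. To show which letters near the starts of the 3 target genes match a single decamer, 250 bases before a start are printed 5′ to 3′ for each (RefSeq, build GRCm38.p6). The capitals mark matches to the consensus of 1 p53 decamer, which reads the same on both strands, so a lone match is not a whole element. The window of Cdkn1a lies at chr17:29090729-29090978 on the plus strand, that of Mdm2 at chr10:117710759-117711008 and that of Ccng1 at chr11:40755287-40755536, both on the minus strand.
Cdkn1a: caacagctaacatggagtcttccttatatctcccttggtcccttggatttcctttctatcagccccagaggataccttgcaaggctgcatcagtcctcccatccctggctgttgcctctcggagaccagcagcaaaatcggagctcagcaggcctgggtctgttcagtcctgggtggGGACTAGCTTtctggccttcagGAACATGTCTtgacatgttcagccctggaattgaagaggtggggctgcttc
Mdm2: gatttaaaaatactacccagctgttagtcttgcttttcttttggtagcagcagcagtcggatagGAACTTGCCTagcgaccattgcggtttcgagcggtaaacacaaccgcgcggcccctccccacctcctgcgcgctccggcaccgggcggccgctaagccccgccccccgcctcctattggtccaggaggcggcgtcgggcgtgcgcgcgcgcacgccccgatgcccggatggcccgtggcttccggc
Ccng1: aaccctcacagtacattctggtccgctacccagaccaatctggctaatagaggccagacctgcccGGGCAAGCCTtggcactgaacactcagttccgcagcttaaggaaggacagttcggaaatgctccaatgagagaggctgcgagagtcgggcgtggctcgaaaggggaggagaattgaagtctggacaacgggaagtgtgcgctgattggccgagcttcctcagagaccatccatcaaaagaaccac
In Cdkn1a the matches begin 73 and 51 bases before the start, in Mdm2 186 and in Ccng1 185 bases before it. Near matches were left in small letters. In Cdkn1a the letters right after the second match, tgacatgttc, depart from the consensus only in the first letter. Cdkn1a has another RefSeq start further downstream, whose window (chr17:29093519-29093768) held no match. The distances given for Cdkn1a are from the upstream start. Windows were found for 9 of the 10 genes. The window of Trp53 also held a match, while those of Atm, Atr, Chek1, Chek2 and Trp73 held none. Of all 32851 such windows, 7.13% held at least 1 match. A match is a description of the letters, and binding was not measured.

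The libraries held 16800421 to 19565275 reads, recovered as whole numbers from the deposited FPKM (fragments per gene, corrected for gene length and depth) and gene lengths. Bcas2, the check of the labels, was at 54.5, 37.5 and 35.7 FPKM in WT libraries and 18.9, 21.9 and 18.3 in cKO libraries, so its groups did not overlap. Genes were compared as log2(FPKM + 1) with limma, which understates the change of low genes, with Benjamini-Hochberg adjustment over 14589 tested genes. At an adjusted p under 0.05, 0 of them were called (0%), and 443 had an unadjusted p under 0.05 in limma (3.04%). WT replicate 1 stood apart over all tested genes. On the first principal component, the main axis of variation between libraries (46.3% of the variance), it lay at −46.7. The other 5 lay at −1.74 to 25.7. It also stood apart in endothelial genes: the mean of 8 endothelial markers was 1.30 above the 6-library average in log2 units, against −0.54 to −0.03 in the other 5. In cKO replicate 2 the mean of 7 erythroid markers lay 3.74 above. In whole ovaries, fewer cells of a type and less RNA per cell cannot be told apart.

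None of the 9 tested genes passed the test between the groups (0 called, beside 0% of all tested genes), and their differences lay on both sides of 0. By mean, 5 were higher and 4 lower in cKO, with log2 fold changes from −0.31 for Atr to 0.45 for Cdkn1a and a median of 0.01, beside −0.01 over all tested genes. The groups overlapped for all 9, while they did not overlap for 7.88% of all tested genes. An unadjusted p under 0.05 was reached by 1 of the 9, Cdkn1a, beside the 3.04% of all genes. The 95% intervals of the 9 reached 0.21 to 0.38 on the log2 scale to either side before any adjustment. Calls used adjusted p, which asks for more: Bcas2 itself, with a log2 fold change of −1.05 and groups that did not overlap, had a limma adjusted p of 0.955. A count of 0 called members therefore does not show that their levels were alike. For a single gene the exact permutation test of 3 against 3 cannot give a p below 0.1.

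**Figure D1:**
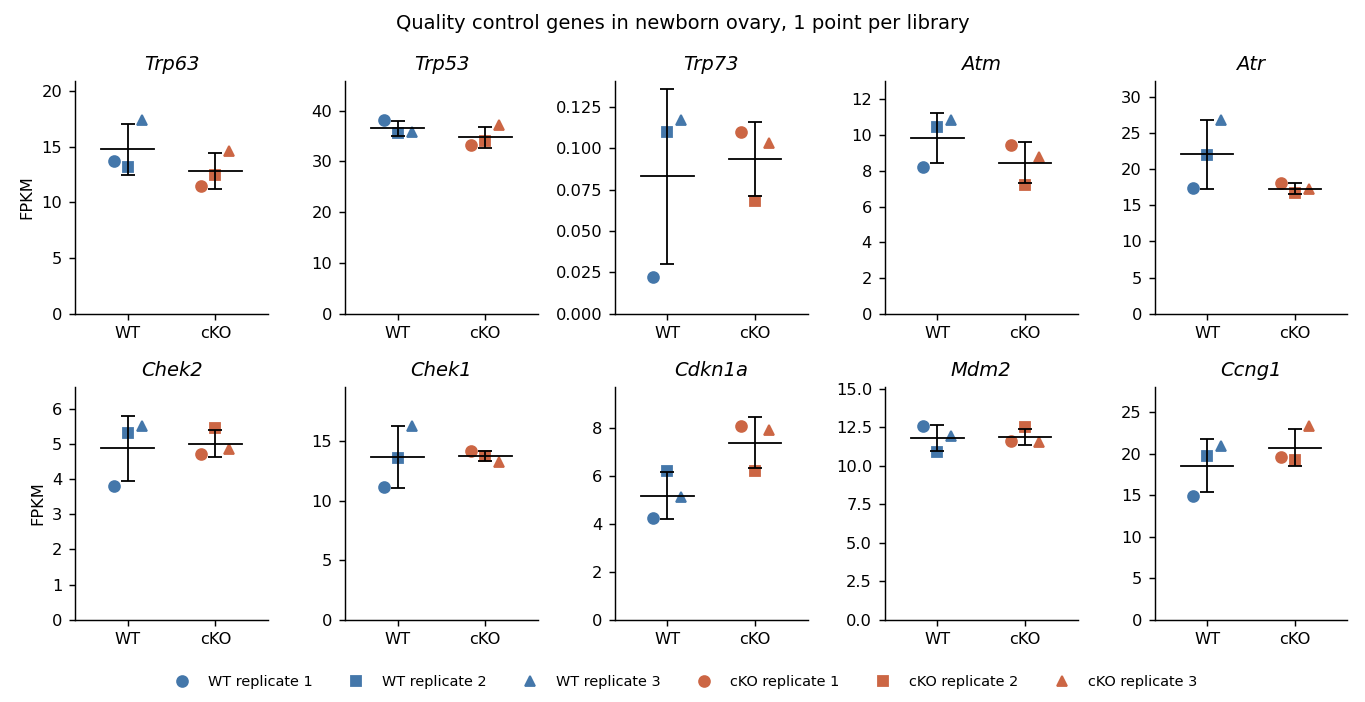
Level of each gene in FPKM (vertical axes start at 0 and differ in scale) in the 3 WT and 3 cKO libraries, with a symbol per library, and the group mean and SD in black. The groups overlap in every panel, and WT replicate 1 is the lowest WT library for 6 of the 9 tested genes.

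Trp63, the guardian of oocyte genome integrity, was well expressed in these ovaries, above 63.6% of tested genes by its mean level. Its plus-strand locus spans positions 25502513 to 25710838 of chromosome 16 (GRCm39, gene identifier 22061). Its level was 13.7, 13.2 and 17.4 FPKM in WT libraries and 11.5, 12.5 and 14.6 in cKO libraries, resting on 1376 to 2349 reads per library. The highest library was WT replicate 3 and the lowest cKO replicate 1, and cKO replicate 3 stood above 2 of the WT libraries. The means were 14.8 ± 2.31 FPKM over WT and 12.9 ± 1.62 over cKO (SD, n = 3 each), a ratio of 0.870. The log2 fold change was −0.18 (SE 0.14, 95% interval −0.52 to 0.15, limma adjusted p = 0.955, exact permutation p = 0.4). Without WT replicate 3 it was −0.07.

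Trp53, which encodes p53, had the highest level per length of the 10 genes and the most even one. It was at 38.2, 35.5 and 35.8 FPKM in WT libraries and 33.2, 33.9 and 37.1 in cKO libraries, a range of 1.15-fold over all 6 libraries. Its mean stood above 86.8% of tested genes. The ratio of the group means was 0.953, and the log2 fold change was −0.07 (95% interval −0.28 to 0.14, limma adjusted p = 0.955). It was −0.04 without WT replicate 1, −0.12 without cKO replicate 3 and −0.15 after rescaling to TPM, which gives every library the same total and moved the median of all genes by −0.08. A pseudogene copy, Trp53-ps, was listed at no more than 0.507 FPKM, so reads assigned to it were few.

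Trp73, the third family gene, encodes a protein with roles in neurons and in cells with many cilia, and was close to the limit of detection. It was at 0.0219, 0.110 and 0.117 FPKM in WT libraries and 0.110, 0.0680 and 0.103 in cKO libraries. These values rest on 2 to 12 reads per library. Summed over the 3 libraries, 24 reads were found in WT (exact 95% Poisson interval 15.4 to 35.7, counting error only) and 26 in cKO (17.0 to 38.1). Being below the filter, Trp73 was not tested.

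Among the kinase genes, Atr had the largest difference between group means and Chek1 the smallest. Atr, the kinase of stalled replication and single-stranded DNA, was at 17.4, 21.9 and 26.8 FPKM in WT libraries and 18.1, 16.7 and 17.2 in cKO libraries. The cKO libraries lay close together, while WT ranged from a value among the cKO ones to well above them. The means were 22.05 ± 4.74 FPKM over WT and 17.3 ± 0.710 over cKO (SD, n = 3 each), a ratio of 0.785. The log2 fold change was −0.31 (SE 0.16, 95% interval −0.68 to 0.06, limma unadjusted p = 0.0856, adjusted p = 0.955, exact permutation p = 0.2). It was −0.47 without WT replicate 1 and −0.16 without WT replicate 3, so its size rested on which WT libraries were counted.

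Atm, the kinase of double-strand breaks, was at 8.24, 10.4 and 10.9 FPKM in WT libraries and 9.44, 7.19 and 8.76 in cKO libraries. WT replicate 1 lay within the cKO range and the other 2 WT libraries above it. The ratio of the means was 0.859 and the log2 fold change −0.20 (95% interval −0.54 to 0.15, limma adjusted p = 0.955). Without WT replicate 1 it was −0.31, and without cKO replicate 2 it was −0.10.

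Chek2, whose product relays the ATM signal to TAp63 in oocytes, was the lowest of the 9 tested genes by level. It was at 3.81, 5.31 and 5.51 FPKM in WT libraries and 4.72, 5.45 and 4.86 in cKO libraries, with 295 to 479 reads per library. All cKO libraries fell inside the WT range. The group ratio was 1.03, with a log2 fold change of 0.04 (95% interval −0.31 to 0.40, limma adjusted p = 0.983). Chek1, the kinase downstream of ATR, was at 11.1, 13.6 and 16.3 FPKM in WT libraries and 14.1, 13.8 and 13.3 in cKO libraries. Its ratio was 1.004 and its log2 fold change 0.02 (95% interval −0.31 to 0.35, limma adjusted p = 0.991). The sign of both turned after rescaling to TPM, to −0.03 for Chek2 and −0.06 for Chek1.

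Of the targets, Cdkn1a had a higher mean in cKO by 1.43-fold, and Mdm2 and Ccng1 stayed closer to 1. Cdkn1a encodes p21, an inhibitor of cyclin-dependent kinases. It was at 4.23, 6.19 and 5.10 FPKM in WT libraries and 8.08, 6.19 and 7.90 in cKO libraries. cKO replicates 1 and 3 lay above all WT libraries, while cKO replicate 2 lay just below the highest WT library, by less than the rounding shown. The means were 5.18 ± 0.986 FPKM over WT and 7.39 ± 1.05 over cKO (SD, n = 3 each). The log2 fold change was 0.45 (SE 0.16, 95% interval 0.07 to 0.82, limma unadjusted p = 0.0269, adjusted p = 0.955, exact permutation p = 0.2). By unadjusted p it ranked 220 of the 14589 tested genes.

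The libraries held 150 to 298 reads of Cdkn1a, for which counting gives a relative error of 5.79% to 8.16%. The relative SD between replicates was 19.0% in WT and 14.2% in cKO. Over the alternative settings its log2 fold change ran from 0.33 without WT replicate 1 to 0.56 without WT replicate 2. The unadjusted p ran from 0.0143 to 0.0914 and the adjusted p from 0.599 to 0.9998 in limma, so the direction held in each setting and no setting gave a call.

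Mdm2, the ubiquitin ligase that p53 induces and that in turn degrades p53, was at 12.6, 10.9 and 11.9 FPKM in WT libraries and 11.6, 12.5 and 11.5 in cKO libraries. All cKO values fell inside the WT range. Its log2 fold change was 0.01 (95% interval −0.22 to 0.24, limma adjusted p = 0.994), and −0.07 after rescaling to TPM. Ccng1, the gene of cyclin G1, was at 14.9, 19.7 and 20.9 FPKM in WT libraries and 19.6, 19.3 and 23.3 in cKO libraries. cKO replicate 3 was the highest and WT replicate 1 the lowest. The group ratio was 1.12 and the log2 fold change 0.16 (95% interval −0.19 to 0.52, limma adjusted p = 0.955), which became 0.02 without WT replicate 1.

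**Figure D2:**
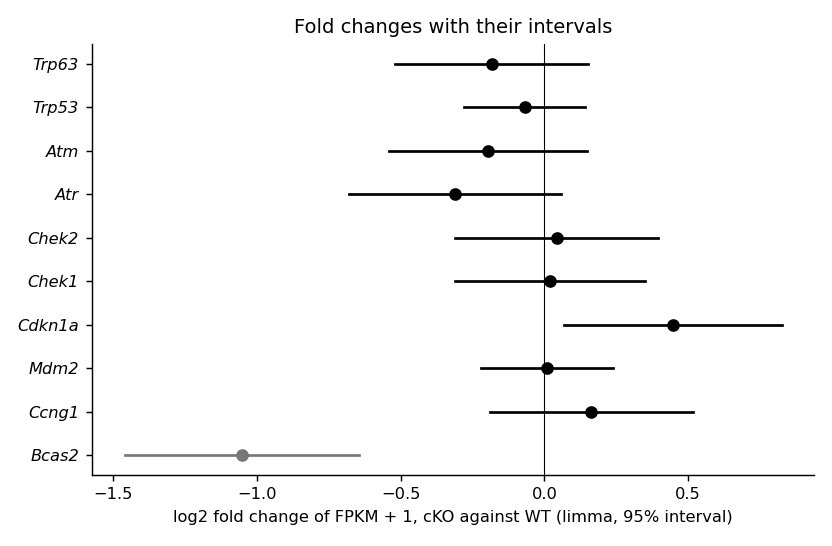
Log2 fold change of FPKM + 1 between cKO and WT with 95% intervals from limma for the 9 tested genes (black) and Bcas2 (grey). Intervals of 8 of the 9 include 0, that of Cdkn1a runs from 0.07 to 0.82 before any adjustment, and that of Bcas2 from −1.46 to −0.64.

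By mean FPKM over the 6 libraries the order was Trp53 (35.6), Atr (19.7), Ccng1 (19.6), Trp63 (13.8), Chek1 (13.7), Mdm2 (11.8), Atm (9.16), Cdkn1a (6.28), Chek2 (4.94) and Trp73 (0.0883). Neighbours with separate ranges were Trp53 and Atr, Mdm2 and Atm, and Chek2 and Trp73. Atr stood above Ccng1 in all 3 WT libraries and below it in all 3 cKO libraries, and a test of this difference was not run. Each of these genes overlapped between the groups on its own. How often other gene pairs switch in this way was not counted, so the switch gives no support for a difference. Trp63 and Chek1 each led in 3 of the 6 libraries. Ccng1 stood above Trp63 and Atm above Cdkn1a in all 6 libraries although their ranges overlapped. Chek1 stood above Mdm2, and Cdkn1a above Chek2, in 5 of 6.

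Gene models that overlap the members carried few reads or shared few bases. Another model overlaps 4 of the 10 genes. Hscb shares 6 bases with Chek2 on the opposite strand and was at 12.9 to 22.2 FPKM. Gm16794, a noncoding RNA, shares 10716 bases of genomic span with Atr on the opposite strand and was at no more than 0.326 FPKM. The other 2 models over Atr, 1700065D16Rik and LOC115487301, reached at most 0.757 and 0.647 FPKM, and the small RNA genes within Trp63 and Trp73 were listed at 0.

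Trp63 was next set beside oocyte markers, since its level in a whole ovary also depends on the share of oocytes. The difference between log2(FPKM + 1) of Trp63 and the mean of 10 oocyte markers was −1.66, −1.81 and −1.95 in WT and −2.16, −2.20 and −1.76 in cKO. cKO replicates 1 and 2 lay below all WT libraries and cKO replicate 3 among them. The group means were −1.81 ± 0.14 and −2.04 ± 0.25 (SD, n = 3 each), and they differed by −0.23 with an exact two-sided permutation p = 0.3. The difference lay between −0.37 without cKO replicate 3 and −0.15 without cKO replicate 2. The oocyte marker mean itself was 5.78 ± 0.33 in WT and 5.82 ± 0.11 in cKO. Single markers went both ways: 7 were higher and 3 lower in cKO by mean, with log2 fold changes from −0.27 for Gdf9 to 0.31 for Dppa3.

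**Figure D3:**
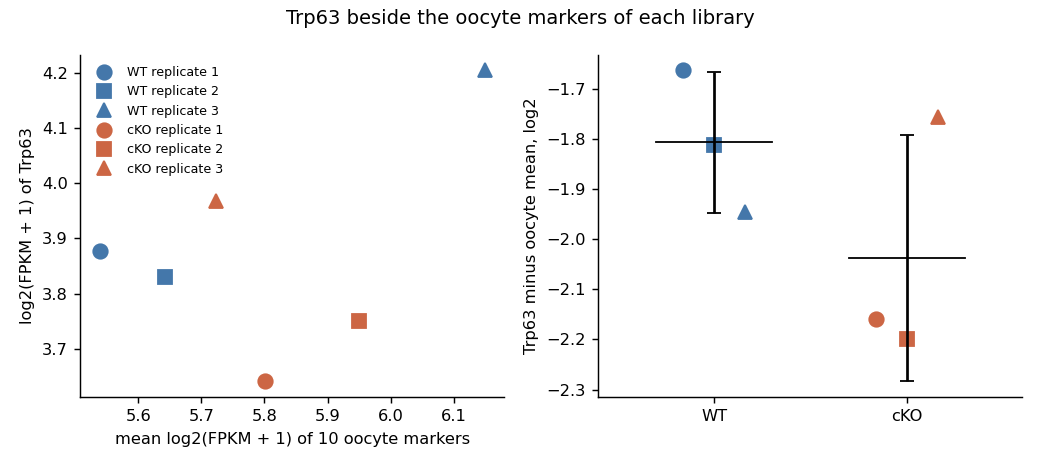
Left, log2(FPKM + 1) of Trp63 against the mean of 10 oocyte markers in each library. Right, the difference of these values by group, with mean and SD in black. WT replicate 3 is highest on both axes, and the cKO differences (−2.20 to −1.76) overlap those of WT (−1.95 to −1.66).

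Trp63 is also expressed by cells of stratified epithelium, whose markers were mostly low in the libraries. Of 8 markers 5 stayed under 1 FPKM in every library. The lowest were the basal keratin gene Krt5, at no more than 0.0979 FPKM, and Dsg3, of epidermal cell junctions, at no more than 0.0278 FPKM. Krt14, at 0.6355 to 1.6009 FPKM, and Sfn, at 0.5525 to 1.5397 FPKM, passed the filter. Both overlapped between the groups. The 8 summed to 9.98 to 12.6 FPKM in WT and to 10.4 to 13.1 FPKM in cKO, to which Perp, itself a p53 family target, gave the largest part. For Trp73, markers of multiciliated cells were read: 3 of 7, Mcidas, Dnah5 and Tekt1, stayed under 1 FPKM in every library. Foxj1, a regulator of motile cilia, was at 0.418 ± 0.153 FPKM over WT and 1.13 ± 0.0996 over cKO (SD, n = 3 each). It was under 1 FPKM in all WT libraries and passed the filter only through the cKO libraries. Its lack of overlap therefore gives no support for a difference. Rsph1, of ciliary axonemes, was at 1.85 ± 0.186 and 2.79 ± 0.503 FPKM (SD, n = 3 each). With Foxj1 set aside, Rsph1 was the only tested marker without overlap, while 7.88% of all tested genes had none. Foxj1 and Rsph1 both had a limma adjusted p of 0.955. The other tested markers, Ccno and Ccdc39, overlapped, with log2 fold changes of 0.06 and 0.04. Ccno went the other way in level, at 87.7 to 136.3 FPKM, far above the rest of the list, while Ccdc39 was at 1.47 to 1.98 FPKM. Trp73 itself overlapped between the groups.

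The genes differed more among WT libraries than among cKO libraries. The relative SD was larger in WT for 8 of the 9 tested genes, with Trp53 the exception, and for 63.9% of all tested genes. Its median was 17.2% in WT and 7.74% in cKO for the 9 genes, beside 15.2% and 11.4% for all tested genes. WT replicate 1 was the lowest WT library for Chek1, Chek2, Atm, Atr, Cdkn1a and Ccng1, and the highest for Trp53 and Mdm2. WT replicate 3 was the highest of all 6 libraries for Trp63, Chek1, Chek2, Atm and Atr.

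Marker lists moved with these libraries. WT replicate 1 was also lowest in the oocyte marker mean, at −0.26 from the 6-library average (log2). WT replicate 3 was highest in it, at 0.35, and lowest in the endothelial mean, at −0.54. The mean of 10 proliferation markers was also below average in WT replicate 1 (−0.15) and above it in WT replicate 3 (0.20). Summed FPKM of the 10 oocyte markers ran from 785.2 to 1185 in WT and from 911.3 to 1223 in cKO, and none of the 10 was under 1 FPKM in all libraries. The 8 endothelial markers summed to 40.4 to 163.3 FPKM in WT and to 45.9 to 59.2 FPKM in cKO. Their part in the levels of the quality control genes was not tested.

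**Figure D4:**
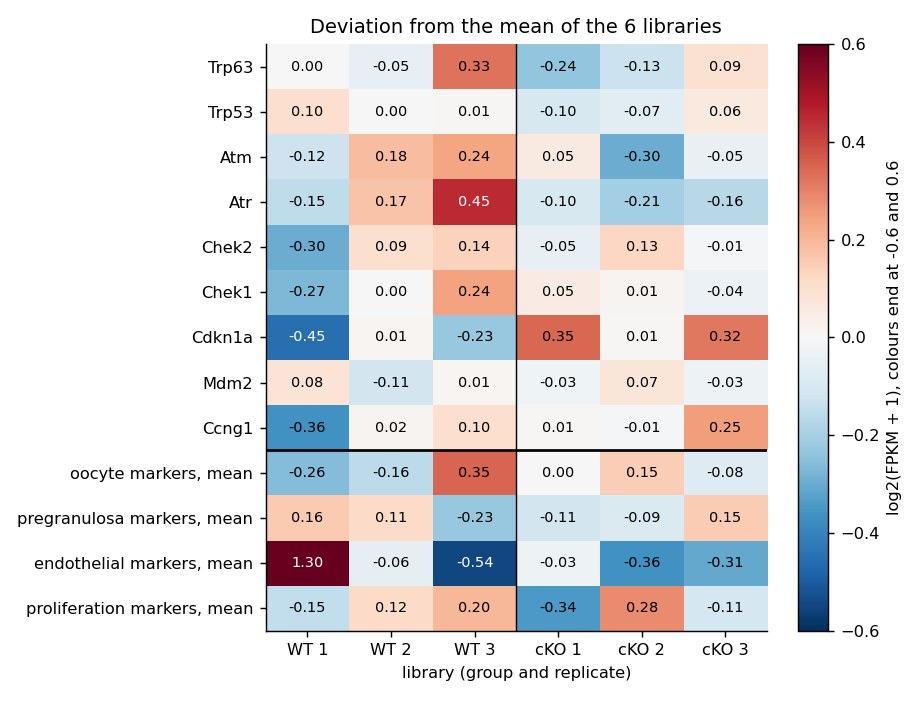
Deviation of log2(FPKM + 1) from the mean of the 6 libraries, for the 9 tested genes (above the line) and the means of 4 marker lists (below), with WT at left and cKO at right. Kinase genes are low in WT replicate 1 and high in WT replicate 3, as are the oocyte and proliferation means. In cKO replicate 2, Atm (−0.30) and Atr (−0.21) are low while the oocyte (0.15) and proliferation (0.28) means are high. The endothelial value of 1.30 in WT replicate 1 exceeds the colour range.

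The wider pathway showed no called gene either. In 6 lists with 95 genes around the members, 89 genes were tested. By limma's adjusted p 0 rose and 0 fell, while 1 had an unadjusted p under 0.05. By mean 41 were higher and 48 lower in cKO. The median log2 fold change was −0.02, beside −0.01 for all tested genes. The groups did not overlap for 8 of the 89, beside 7.88% of all tested genes.

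Damage sensors and adaptors load and activate ATM and ATR. Of 24 listed genes 21 were tested, and 0 rose, 0 fell and 21 stayed short of the threshold, around a median log2 fold change of −0.02. Telo2, a chaperone cofactor that stabilises ATM and ATR proteins, was at 7.22, 7.21 and 6.57 FPKM in WT libraries and 6.20, 5.91 and 5.28 in cKO libraries. All cKO libraries lay below all WT libraries, with a log2 fold change of −0.24 and a limma adjusted p of 0.955. Topbp1, the activator of ATR, was at 32.1 ± 1.79 FPKM over WT and 29.9 ± 0.0751 over cKO (SD, n = 3 each), also without overlap. Rad9a, part of the clamp that recruits Topbp1, was at 7.81 ± 1.19 and 9.40 ± 1.02 FPKM with overlap. H2ax, the histone variant phosphorylated at breaks, and Atrip, the partner of ATR, were listed at 0 in all 6 libraries. Both are genes of general use, so these listed zeros were not read as absence of expression.

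Checkpoint effectors include the kinases and phosphatases that act on CDK1 and the casein kinase 1 family, which completes the activation of TAp63. All 12 were tested, and 0 rose, 0 fell and 12 stayed short of the threshold, around a median log2 fold change of −0.06. Wee1, an inhibitory kinase of CDK1, was at 26.7 ± 2.49 FPKM over WT and 23.7 ± 0.912 over cKO. The casein kinase genes Csnk1a1 and Csnk1e were at 49.3 ± 2.87 and 19.5 ± 2.94 FPKM over WT, and 45.1 ± 2.30 and 17.7 ± 0.647 over cKO (SD, n = 3 each). The groups overlapped for all 12.

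Regulators of the p53 family gave 17 tested genes, of which 0 rose, 0 fell and 17 stayed short of the threshold, around a median log2 fold change of −0.06. Itch, a ubiquitin ligase that targets p63, was at 20.6, 20.5 and 19.99 FPKM in WT libraries and 18.6, 17.0 and 19.3 in cKO libraries. Its groups did not overlap, with a log2 fold change of −0.15 and a limma adjusted p of 0.955. Huwe1, a large ubiquitin ligase with p53 among its substrates, was at 76.6 ± 7.54 FPKM over WT and 65.6 ± 1.37 over cKO (SD, n = 3 each), without overlap. Cables1 was at 12.97 ± 2.49 and 10.3 ± 2.20 FPKM, with overlap.

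Cell death targets were the list nearest to the end of the TAp63 relay. Of 14 tested genes 0 rose, 0 fell and 14 stayed short of the threshold, around a median log2 fold change of 0.0026. That median was 0.10 without WT replicate 3, 0.07 without cKO replicate 1 and −0.08 after rescaling to TPM, the size of the shift of all genes. Pmaip1, which encodes NOXA, an oocyte effector of TAp63, was at 1.12, 1.09 and 1.64 FPKM in WT libraries and 1.65, 2.53 and 1.93 in cKO libraries. The groups did not overlap, although WT replicate 3 and cKO replicate 1 nearly met, and the log2 fold change was 0.41 (SE 0.18, limma adjusted p = 0.955). Bax, the pore-forming effector, was at 42.3, 46.99 and 55.4 FPKM in WT libraries and 55.7, 82.2 and 51.9 in cKO libraries, with cKO replicate 2 far above the rest. Apaf1, of the apoptosome, was at 6.13 ± 1.01 FPKM over WT and 4.93 ± 0.726 over cKO (SD, n = 3 each).

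Arrest and repair targets went both ways. Of 15 tested genes 0 rose, 0 fell and 15 stayed short of the threshold, around a median log2 fold change of −0.02, which became 0.09 without WT replicate 1. Xpc, a damage recognition protein of nucleotide excision repair, was at 20.0, 19.6 and 22.8 FPKM in WT libraries and 16.1, 14.99 and 18.1 in cKO libraries. Across the lists it alone had an unadjusted p under 0.05 in limma (adjusted p = 0.955). Its log2 fold change was −0.33, opposite in sign to that of Cdkn1a, and its groups did not overlap. Ddit4, a stress-induced inhibitor of mTOR signaling, was at 44.8 ± 7.26 FPKM over WT and 55.4 ± 6.72 over cKO, and Sesn2, a stress-response gene, at 4.51 ± 0.189 and 5.50 ± 1.39 FPKM (SD, n = 3 each).

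Genes of the meiotic axis, whose HORMA proteins mark unrepaired breaks for CHK2, were higher by mean in cKO for most members. Of 10 tested genes 0 rose, 0 fell and 10 stayed short of the threshold, and the median log2 fold change was 0.10. A higher mean in cKO was found for 8 of the 10, beside 48.7% of all tested genes and 7 of the 10 oocyte markers. Whether the list differs from the oocyte markers was not tested. Hormad2 was at 2.22, 2.14 and 3.26 FPKM in WT libraries and 3.03, 3.78 and 2.69 in cKO libraries. WT replicates 1 and 2 were below all cKO libraries and WT replicate 3 was among them. Hormad1 was at 19.6, 16.9 and 46.8 FPKM in WT libraries and 43.9, 44.1 and 35.8 in cKO libraries, with WT replicate 3 the highest of all. Spo11, which makes the meiotic breaks, was at 1.91 ± 0.580 and 2.998 ± 0.665 FPKM (SD, n = 3 each). The list median lay between 0.0037 and 0.32 when single libraries were left out.

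**Figure D5:**
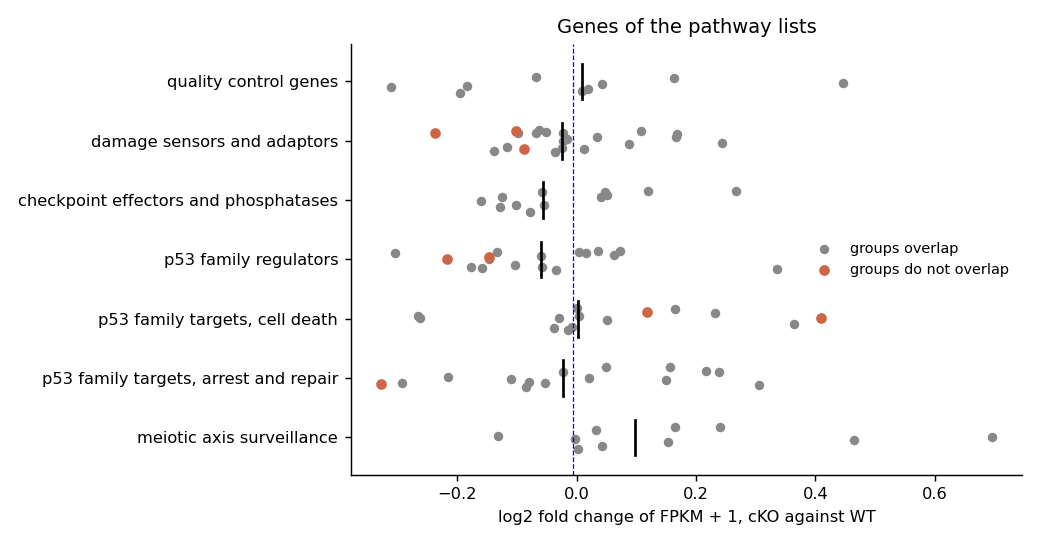
Log2 fold change of FPKM + 1 between cKO and WT for the tested genes of the member list and of 6 pathway lists, with a point per gene, black bars at the list medians and a dashed line at the median of all tested genes (−0.01). Orange points are genes whose groups did not overlap. Medians of the lists lie between −0.06 and 0.10.

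The genes most like Trp63, Cdkn1a and Atr over the 6 libraries were found by Pearson correlation of log2(FPKM + 1) among 8721 protein-coding genes. With so few libraries, 111 genes had r over 0.9 with Trp63, 36 with Cdkn1a and 60 with Atr, so these names are descriptions of shape. Among those most like Trp63 were Rfk, riboflavin kinase (r = 0.996), and Neurl4 (r = 0.992). Rfk was at 73.4, 71.05 and 90.5 FPKM in WT libraries and 62.7, 65.7 and 78.5 in cKO libraries, with the same order of libraries as Trp63. Nearest to Cdkn1a were Pkn2 (r = 0.994), Crabp1, a retinoic acid binding protein (r = 0.976), and Sptlc2 (r = 0.967). Pkn2 matched only in shape, since it ran from 19.2 to 20.5 FPKM, while Crabp1 ran from 9.94 FPKM in WT replicate 1 to 17.9 FPKM in cKO replicate 1. Nearest to Atr were Tmem101 (r = 0.982), the cystine transporter gene Slc7a11 (r = 0.972) and Gpr89 (r = 0.964).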

How the data were processed

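Whole ovaries at 1 dpp were profiled by RNA sequencing in 3 WT and 3 cKO samples. The authors deposited FPKM values with gene lengths and coordinates for 47122 gene models. Per the submitters' processing notes, the tool named is HISAT2 2.0.5, and builds GRCm39 and mm10 both appear. The table's sequence accessions are those of GRCm39. Not given in the sources used here are the read counter, its annotation and its strand setting. Groups came from the sample titles and columns from the descriptions.

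Dividing FPKM times gene length by each library's smallest step returned whole reads within 0.05 for 100% of values above 0 and under 1000 reads. The authors' FPKM already carried equal median-of-ratios factors (1.0007 in each library). Genes with at least 1 FPKM in at least 3 of 6 samples were tested with limma 3.58.1 in R 4.3.3 on log2(FPKM + 1), two-sided, with a trend in the prior spread, Benjamini-Hochberg adjustment over all 14589 genes and a threshold of 0.05. Named genes were all members, the 3 smallest p-values of each pathway list, the 3 genes most like Trp63, Cdkn1a and Atr, overlapping genes and Bcas2; cell type markers, and list genes listed at 0, were named for checks. Members and lists were chosen with earlier results of these data known. A gene that the naming rule picked is not reported here. H2afx was matched to H2ax through RefSeq. Alternatives covered the pseudocount, filter, scaling, a replicate block, limma-voom on the recovered reads and leaving out each library. The fit was also run on simulated reads with the same spread setting for every gene and no marker differences between libraries. That run therefore does not show how the fit performs on these libraries.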

Additional observations from a re-analysis of the deposited data

How the results depend on the processing

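The count of called genes among the members and among the 6 lists was 0 in all 14 alternatives, and over all genes it was 0 in 13 of them. Leaving out single libraries gave 0 to 1 over all genes, the 1 being the pseudogene Pcna-ps2 without cKO replicate 2, named after its values were seen. Genes with an unadjusted p under 0.05 in limma numbered 443, 254 with a filter at 5 FPKM, 1147 without a filter, and 253 (without cKO replicate 2) to 1056 (without WT replicate 3) when single libraries were left out. Trp63, Trp53, Atm, Atr, Cdkn1a and Ccng1 kept their direction in all 14 alternatives. Rescaling to TPM, which moved the median of all genes by −0.08, turned Chek1 to −0.058, Chek2 to −0.026 and Mdm2 to −0.069. Without single libraries Chek1 ran from −0.11 to 0.15, Chek2 from −0.10 to 0.12 and Mdm2 from −0.043 to 0.054; the cause was not tested. Chek1 was at −0.0004 without cKO replicate 1, Chek2 at −0.0087 and Mdm2 at −0.02 without cKO replicate 2. A replicate block gave 432 genes at an unadjusted p under 0.05 and 0 called, and Cdkn1a had an unadjusted p of 0.0576 under it. Same-numbered samples correlated in their deviations by 0.22, 0.01 and −0.03, and 2 of 6 samples correlated best with their own number, so the numbers were not taken to pair the samples. Depth limits Trp73, with 2 to 12 reads per library.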
